A study of Mus musculus with 5 samples.

Results

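Neutrophils of the mouse liver were picked out of 5 single-cell RNA libraries by their own transcripts. Members were selected on measured UMI counts: a barcode was taken when it held at least 1000 unique molecular identifiers (UMIs, one per captured RNA molecule), at least 500 genes and under 30% mitochondrial UMIs, at least 20 UMIs of S100a8 and S100a9 together, and at least 2 of the 6 genes Retnlg, Ngp, Camp, Csf3r, Cxcr2 and Stfa2l1. This gave 523 barcodes of the 104143 that passed the depth, gene and mitochondrial limits. Each library stands for 1 group of C57BL/6J mice: postnatal day 14 (P14), an untreated adult control, and adults at 24, 48 and 96 h after partial hepatectomy (PHx), in which most of the liver is removed. Adults were 8 weeks old. Livers were dissociated by 2-step perfusion, dead cells were depleted with a kit, and no leukocyte sort is named in the labels. Title and source labels call the adult control untreated, while a shared protocol text counts it among the operated mice, and the titles were followed here. Sex and the number of mice pooled per library are absent from the labels. The control carries code 2 in its description and the other 4 libraries code 1, so whatever the code stands for cannot be told apart from control status. With 1 library per group no test between groups was possible. Every interval is a 95% interval for counting error alone, and "2-fold" is a rule of size.

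Neutrophils are short-lived phagocytes made in the bone marrow. Their granules are filled in sequence: primary granule proteases such as Elane at the promyelocyte stage, secondary granule proteins such as Ngp, Camp and Ltf at the myelocyte stage, and later the products of maturing cells, among them the chemokine receptor Cxcr2, the resistin-like secreted protein Retnlg and, once cells are stimulated, the cytokine Il1b. After liver injury neutrophils enter the organ from the blood, where they clear debris and release proteases and cytokines.

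Of the genes the results turn on, Ngp (neutrophilic granule protein) and Ltf (lactoferrin) mark the immature end of the series. The stefin A genes Stfa2l1 and Stfa3 (cysteine protease inhibitors) lie in the gene cluster described below for P14. Stfa2l1 helped to choose the barcodes, so it is left out of the comparisons between libraries. RefSeq promoter entries (GRCm38.p6) hold these 120 bases, which end just before the earliest start annotated in RefSeq or GENCODE, shown because the pairs carry a shared run of letters. Capitals mark TTGCNNAA, the kind of site bound by C/EBP factors, which govern granule genes, in the first pair (as written in Ngp, on the opposite strand in Ltf), and ACCTTTAAAACCC in the stefin pair. The coordinates are chr9:110419627-110419746 (plus strand), chr9:111019151-111019270 (plus), chr16:36156691-36156810 (plus) and chr16:36455393-36455512 (minus), in that order.
Ngp: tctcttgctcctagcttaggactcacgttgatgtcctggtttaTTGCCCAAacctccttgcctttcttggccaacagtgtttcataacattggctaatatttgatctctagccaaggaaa
Ltf: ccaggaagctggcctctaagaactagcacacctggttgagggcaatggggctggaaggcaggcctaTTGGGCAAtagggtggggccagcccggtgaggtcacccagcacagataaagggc
Stfa2l1: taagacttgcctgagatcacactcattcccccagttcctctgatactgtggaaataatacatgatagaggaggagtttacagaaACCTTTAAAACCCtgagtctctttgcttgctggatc
Stfa3: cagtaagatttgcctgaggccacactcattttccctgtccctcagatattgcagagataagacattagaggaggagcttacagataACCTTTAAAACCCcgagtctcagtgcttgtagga

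TTGCNNAA, read on both strands over the 250 bases before the start, was present in 3142 of all 32851 promoters (9.56%) and in 5 of the 11 secondary granule genes with an entry: Lcn2, Mmp8, Ngp, Ltf and Anxa1. Of 21 tertiary granule and maturation genes with an entry, 3 held it (Slpi, Clec4e and Retnlg). ACCTTTAAAACCC is the longest run that all stefin windows share within 60 bases of the start. It was chosen from these windows, so its presence in all 4 stefin genes with an entry (Stfa2l1, Stfa1, Stfa2 and Stfa3) is a description. It stood in 8 of the 32851 promoters (0.0244%). In the 4 stefin windows it began 36, 33, 32 and 34 bases before the start, in that order. No entry was found for BC100530 or Gm5483.

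The label was checked on the 5 neutrophil markers that played no part in the selection (Ly6g, Mmp8, Mmp9, Ltf and G0s2), and each was present in every library. Ly6g, the surface antigen that defines mouse neutrophils, was at 549 CPM (counts per 1000000) at P14, 284 in the control, and 535, 936 and 417 at 24, 48 and 96 h. There were 58 neutrophil barcodes at P14, 49 in the control, and 167, 170 and 79 at 24, 48 and 96 h after hepatectomy. Shares were taken of the members plus the barcodes assigned by markers to T or NK cells, B cells or monocytes. Such a barcode had at least 3 markers of its class and more than of the others. Kupffer and dendritic cells were not counted, so these are not shares of all leukocytes. P14 had 21.6% (16.9 to 27.1) and the control 4.89% (3.64 to 6.41). The 24 h library had 27.6% (24.1 to 31.4), the 48 h library 14.6% (12.7 to 16.8) and the 96 h library 11.3% (9.06 to 13.9). The control share lay below the other 4 intervals and the 24 h share above those at 48 and 96 h. In the control, the low-ranked barcodes taken here as free RNA had a median of 1330 UMIs, above the 1000 UMI limit. How many of its 67862 passing barcodes held a cell was not tested, and shares of passing barcodes are not comparable with the control's. Over passing barcodes the order after surgery differed, with 4.12% (3.53 to 4.77) at 48 h above 1.64% (1.40 to 1.91) at 24 h. P14 then had 1.05% and 96 h 0.479%. Few barcodes lay at the S100 limit: 5 had 20 to 24 UMIs of S100a8 and S100a9, and 5 others that met the other conditions had 15 to 19. The limit is a count, so deep barcodes could pass it at a low share. Under 2% of UMIs were S100a8 and S100a9 in 3, 3, 9, 5 and 5 barcodes at P14, control, 24, 48 and 96 h, against library medians of 10.6 to 35.9%. A P14 barcode of 58737 UMIs had 0.034% and 7 monocyte markers.

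Median depth was 7208 UMIs per barcode at P14, 3336 in the control, and 5366, 9229.5 and 3785 at 24, 48 and 96 h. An estimated 8.97 to 30.7% of each library's UMIs came from free RNA, which was subtracted, and CPM below are levels after subtraction over non-mitochondrial UMIs. S100a8 and S100a9 together took 11.3% of the control's UMIs and 34.1% of those at 48 h, which lowers every other gene's share there. No neutrophil barcode was shared between libraries as a member of both, and 12 of them also passed the depth, gene and mitochondrial limits in another library, 3 of them when the control is left out. By 2 rules added after the data were seen, 73 of the 523 barcodes also carried RNA of another class: at least 3 different markers of another leukocyte, endothelial, Kupffer, dendritic or platelet class, or over 3 times the library's median hepatocyte share. Erythroid markers were not part of these rules, and barcodes with at least 3 of them, 30 at 48 h, 10 at 24 h and 8 in the control, could stay. Before free-RNA subtraction the summed erythroid level was 398 CPM in the control and 453 CPM without mixed barcodes, beside 1099.5 CPM in the control's free RNA. The mixed barcodes numbered 8, 8, 23, 30 and 4 in the order P14, control, 24, 48 and 96 h, and values without these mixed barcodes are given where they differ. Without them the free-RNA estimate was 40.6% in the control, 8.49% at P14, and 11.3, 3.25 and 21.9% after surgery, so more was subtracted from the control than from the libraries set against it. In the control, at least 3 monocyte markers stood in 4 barcodes, 3 dendritic markers in 3 and 3 T or NK markers in 3. Endothelial markers and those of eosinophils, basophils or mast cells did so in 1 barcode each. Before free-RNA subtraction, the 8 dendritic genes had 144 summed UMIs, or 659 CPM, against 7.30 CPM without the mixed barcodes. The 12 T or NK genes had 123 UMIs, or 563 CPM, against 14.6 CPM, and the 9 monocyte genes 139 UMIs, or 636 CPM, against 263 CPM.

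By a balance of immature and mature genes, P14 stood at the immature end and 96 h at the mature end. The balance is the log2 ratio of summed Ngp and Camp to summed Retnlg, Cxcr2 and Il1b. It stood at 2.20 (2.15 to 2.25) at P14, -0.42 (-0.52 to -0.32) in the control, and -0.58, -0.36 and -1.77 in the 24, 48 and 96 h libraries. Without mixed barcodes the control moved to -0.99 and P14 to 1.90, and 24 h (-0.62) and 48 h (-0.33) lay above the control. Without barcodes of at least 10 Elane UMIs as well, 24 h (-1.40) lay below the control, still at -0.99. The place of 24 h against the control therefore depends on which barcodes are kept. With every barcode given equal weight it was 0.98 at P14, -0.96 in the control, and -2.20, -1.23 and -2.66 at the 3 times after surgery, so P14 and 96 h stayed at the ends and 48 h went from just above the control to below it. All of these genes but Il1b chose the barcodes, so the balance is a description. Ngp was at 21587 CPM at P14, 4775 in the control, and 8656, 10338 and 3226 at 24, 48 and 96 h. Camp, the cathelicidin antimicrobial peptide, was at 23759 CPM at P14, 4260 in the control, and 10850, 7860 and 3513 after surgery. Retnlg ran from 8051 CPM in the control and 8869 at P14 to 17679.7 at 96 h, 21991 at 48 h and 27165 at 24 h. Most of the mature sum was Retnlg, since that sum was 12059 CPM in the control, 29097 at 24 h and 23327 at 48 h. The mature term of the balance therefore follows mainly Retnlg. Cxcr2 was lowest at P14 (639.9 CPM) and at 48 h (684 CPM) and highest at 96 h (1439 CPM). Csf3r, the receptor for granulocyte colony-stimulating factor, was at 495 CPM at P14, 1512 in the control, 737 and 521 at 24 and 48 h, and 2122 at 96 h.

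A summed balance can rest on few cells. Each barcode was therefore thinned to 1000 UMIs and placed on the immature side when Ngp and Camp outnumbered Retnlg, Cxcr2 and Il1b. On that side lay 17 of 58 P14 barcodes (29.3%, exact binomial interval 18.1 to 42.7) and 3 of 49 control barcodes (6.12%, 1.28 to 16.9). The 24 h library had 16 of 167 (9.58%, 5.58 to 15.1), the 48 h library 28 of 170 (16.5%, 11.2 to 22.9) and the 96 h library 4 of 79 (5.06%, 1.40 to 12.5). The P14 interval lay above those of the control, 24 h and 96 h and overlapped that of 48 h. The 96 h interval overlapped that of the control. All of these genes but Il1b chose the barcodes, and the intervals count barcodes within 1 library per group, so this order is a description. The sides are ranges along a line and no types: 18 barcodes at 48 h and 7 at P14 lay within 2-fold of it, and 6 and 3 more had no UMI of the 5 genes after thinning. Immature-side barcodes were also deeper before thinning, with a median of 12503 UMIs against 4310.5 at P14 and 18766.5 against 8561 at 48 h. Camp was concentrated: 3 barcodes held at least 50% of its UMIs at 24 h, where 33 barcodes had any, and 8 did so at 48 h, where 80 had any. In the control, Ngp and Camp together had 1368 UMIs, and 693 without mixed barcodes. After thinning, 3 control barcodes had 50, 61 and 131 of them, the first a mixed one, and every other at most 3. The control levels of these genes thus rest on few barcodes.

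**Figure D1:**
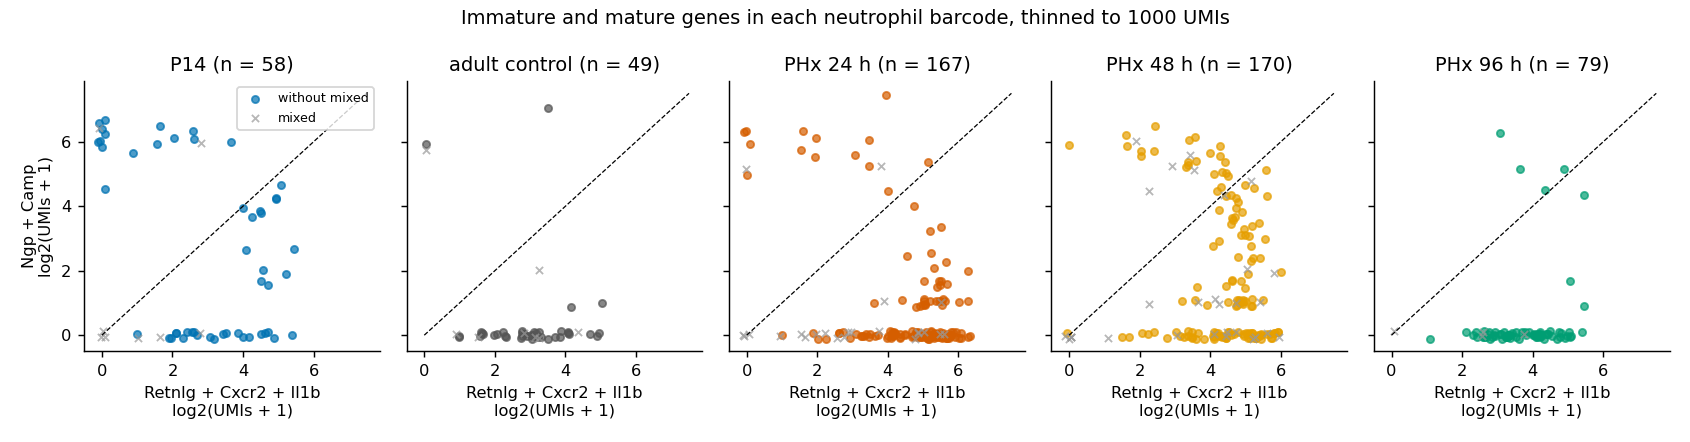
Each point is 1 neutrophil barcode thinned to 1000 UMIs, 1 panel per library, with Retnlg, Cxcr2 and Il1b UMIs on the horizontal axis and Ngp and Camp UMIs on the vertical axis, both as log2(UMIs + 1) with a small random offset, and crosses for mixed barcodes. The dashed line marks equal numbers: 17 of 58 barcodes lie above it at P14 and 4 of 79 at 96 h.

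Transcripts of the primary granule gene Elane came almost wholly from 5 barcodes. Elane (neutrophil elastase) had 1258 summed UMIs at P14, 614 at 24 h, 7 at 48 h and none in the control or at 96 h. Nearly all came from 2 barcodes at P14, with 689 and 565 Elane UMIs, and 3 at 24 h, with 137, 169 and 307. Each of the 5 lay on the immature side and held 12 to 20 of 20 mitosis genes. They also held secondary granule transcripts. Camp had 44 and 1003 UMIs in the P14 barcodes and 4298, 1060 and 821 in those at 24 h, above Elane in 4 of the 5. Ngp had 1 and 48 UMIs at P14 and 2257, 383 and 1 at 24 h. Ltf was absent from both P14 barcodes and from 1 at 24 h, and had 108 and 15 UMIs in the other 2, so the 5 do not stand for 1 stage. In each library 1 of these barcodes counted as mixed, with 3 monocyte markers at P14 and 9 at 24 h. At least 3 mitosis genes were detected in 6 barcodes at P14, 9 at 24 h, 8 at 48 h and none in the control or at 96 h, where a count of 0, read as at most 3 barcodes, allows up to 6.12% and 3.80%. Depth differs between libraries, and after thinning to 2000 UMIs the counts were 3, 4 and 3. Without mixed barcodes and without thinning they were 3, 5 and 1. Prtn3 and Elane, neighbouring protease genes 3.07 kb apart on chromosome 10, and Ctsg were among the 5 highest ratios at 24 h. Without mixed barcodes the 24 h balance was -0.62, and without barcodes of at least 10 Elane UMIs as well it was -1.40.

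**Figure D2:**
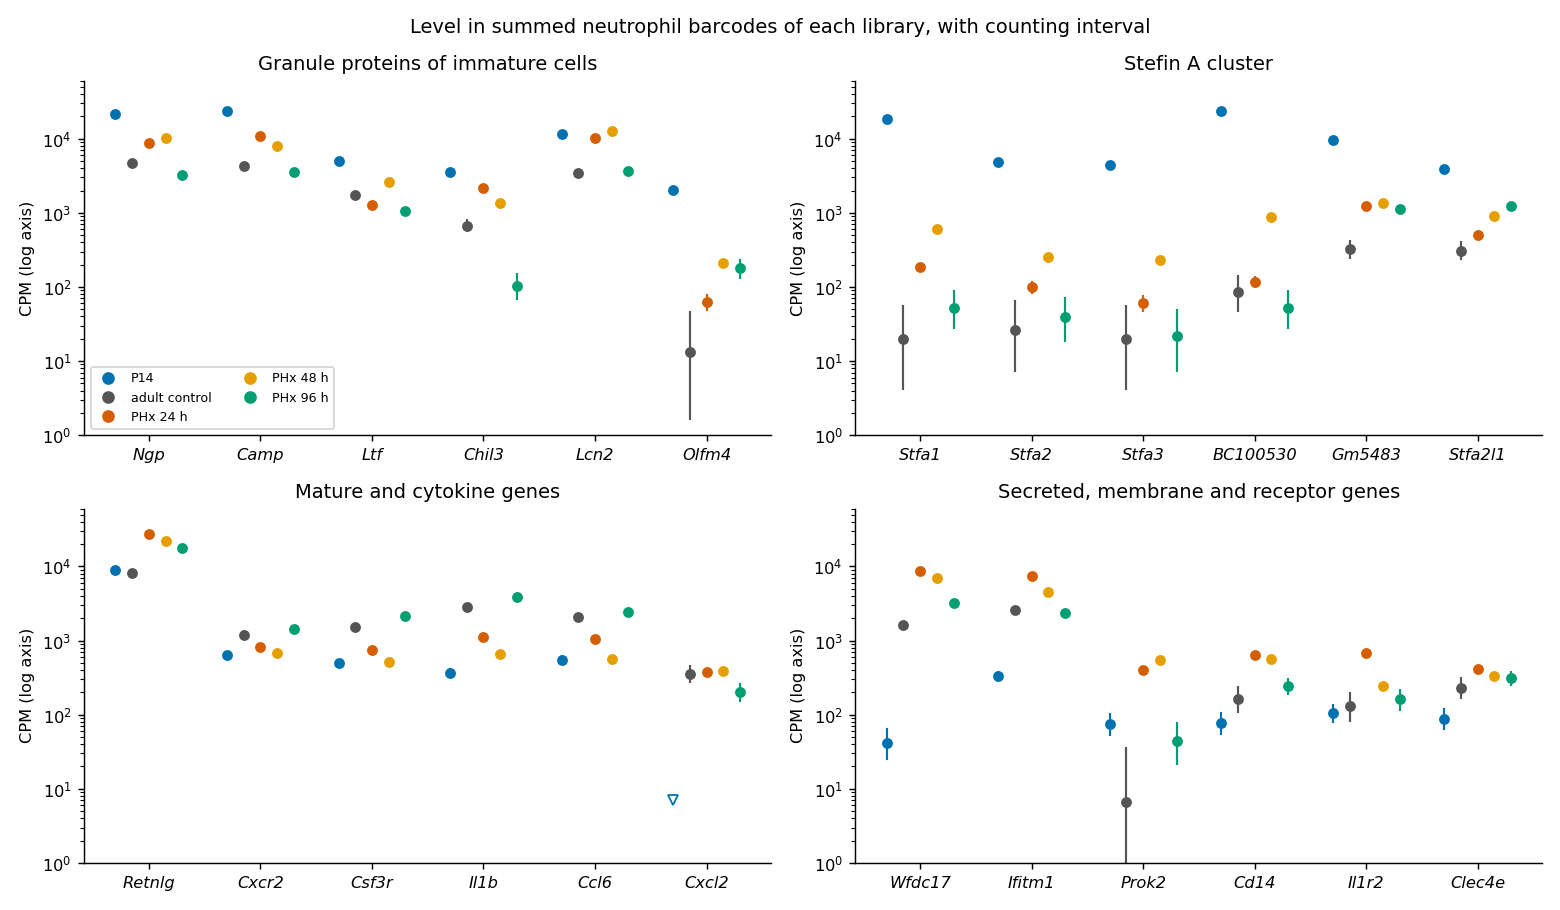
Levels in CPM (log axis) of selected genes in the 5 libraries, 1 library per group, with bars for the 95% counting interval and an open triangle for the floor of 3 counts where no UMI was found. Stfa1 stands at 18309 CPM at P14 and 19.8 in the control, and Wfdc17 at 8585 CPM at 24 h and 41.7 at P14.

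Most secondary granule genes were higher at P14 than in the control, and some were early after surgery. Over the control, at least 2-fold higher were 33 of 761 genes compared at 24 h (4.34%), 41 of 759 at 48 h (5.4%), 52 of 819 at 96 h (6.35%) and 78 of 808 at P14 (9.65%). At least 2-fold lower were 193 (25.4%), 243 (32%), 175 (21.4%) and 242 (30%). Of the secondary granule list without Ngp and Camp, 4 of 11 genes were higher and none lower at 24 h, 5 of 10 and none at 48 h, none of 9 and 1 at 96 h, and 7 of 10 and none at P14. The list medians (log2) were 0.82, 0.98, 0.38 and 1.56, beside -0.58, -0.71, -0.02 and -0.52 over all genes compared. Lcn2, the iron-scavenging lipocalin, was at 11487 CPM at P14, 3414 in the control, and 10253, 12837 and 3632 at 24, 48 and 96 h. The 96 h level matched the control's to within counting error (log2 ratio 0.09, -0.07 to 0.25). Lcn2 was also abundant in free RNA at 24 h, with a UMI in 37.5% of thinned T or NK barcodes. Anxa1, the anti-inflammatory annexin A1, was at 3878 CPM at P14, 964 in the control, and 2046, 2627 and 1604 at 24, 48 and 96 h.

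Not every granule gene moved alike. Ltf was at 4961 CPM at P14, 1717 in the control, and 1294, 2643 and 1065 at 24, 48 and 96 h. Its ratio at 24 h (-0.41, -0.60 to -0.21) turned positive under trimmed-mean (TMM) scaling (0.41), and 1 control barcode held 137 of the control's Ltf UMIs. Chil3, a chitinase-like protein, was at 3511 CPM at P14, 674 in the control, 2190 and 1368 at 24 and 48 h, and 104 at 96 h. At 24 h 2 barcodes held at least 50% of its UMIs. Cd177, a neutrophil surface antigen, was 1.68 higher on the log2 scale at 48 h (1.15 to 2.26) and 1.69 higher at P14 (1.14 to 2.30).

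The choice of scale moved the general level of the ratios. After TMM scaling the all-gene median over the control was 0.24 at 24 h, 0.29 at 48 h, 0.16 at 96 h and -0.01 at P14, and genes at least 2-fold higher and lower numbered 112 and 51 at 24 h, 149 and 63 at 48 h, 70 and 161 at 96 h, and 134 and 134 at P14. With S100a8 and S100a9 left out of the total they numbered 54 and 109, 69 and 128, 70 and 161, and 100 and 186. Ratios are therefore best read beside the all-gene median of their comparison.

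**Figure D3:**
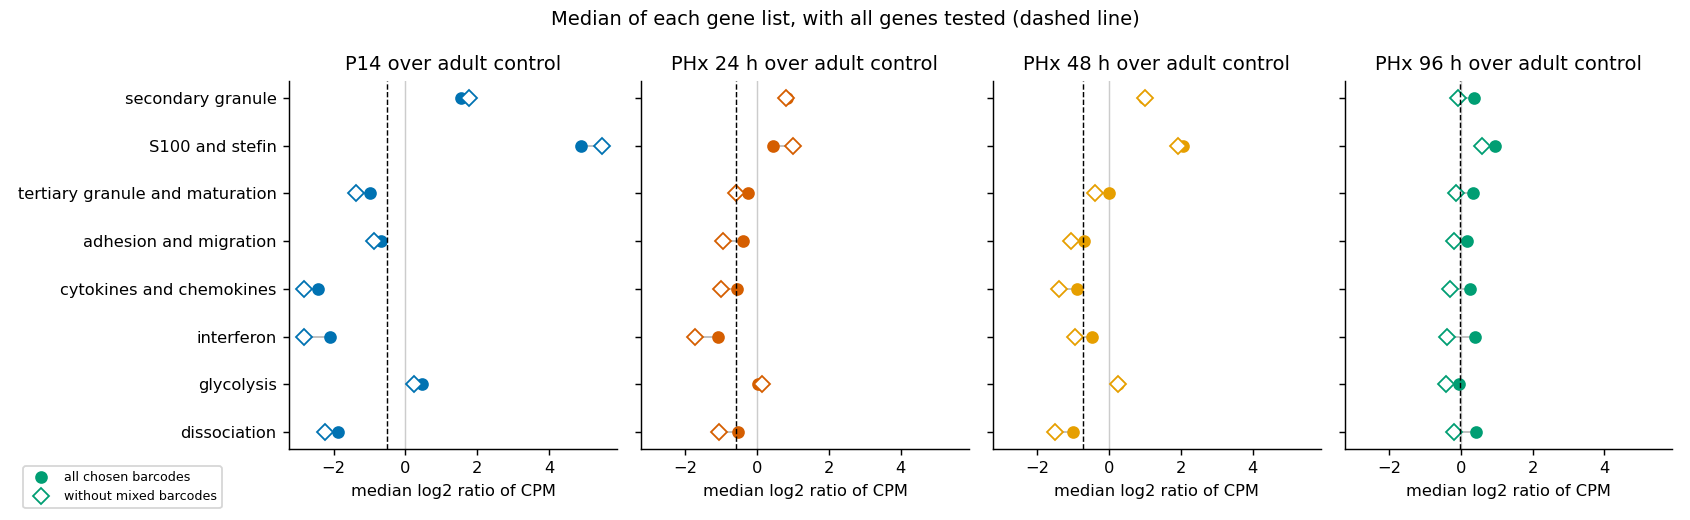
Median log2 ratio of each gene list over the adult control, by library, for all chosen barcodes (circles) and without mixed ones (diamonds), with a dashed line at the all-gene median of each comparison. The S100 and stefin list stands at 4.89 at P14, with stefin genes that passed the level limit through P14 and not the control, and the cytokine list at -2.42.

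P14 neutrophils stood apart by the stefin A genes. Of the S100 and stefin list, 5 of 9 genes were at least 2-fold higher and 1 lower at P14, with a median of 4.89, beside 9.65% of all genes higher, 30% lower and an all-gene median of -0.52. Stfa1, Stfa2, Stfa3 and BC100530 reached the 200 CPM limit at P14 and not in the control. They entered through P14 and were bound to count as higher, so the count and median are a description. Stfa2l1 helped to choose the barcodes and was left out of both. The 6 measured stefin genes lie within 299 kb of chromosome 16 (mm10, 36156811 to 36455392). Stfa1 had 7869 UMIs at P14, 3 in the control, and 185, 1091 and 12 at 24, 48 and 96 h. In CPM these were 18309, 19.8, 183, 612 and 52.2. The ratio of P14 to control was 9.85 on the log2 scale (8.30 to 12.13) and 9.14 without mixed barcodes. BC100530, another stefin gene, was at 23853 CPM at P14, 85.9 in the control, and 116, 892 and 52.2 at 24, 48 and 96 h. Stfa2 was at 4852 CPM at P14 against 26.4 in the control, and Stfa3 at 4458 against 19.8. Gm5483 differed less, with 9570 CPM at P14, 324 in the control, and 1227, 1347 and 1117 after surgery. Stefin genes are near-identical copies, so the division of reads between single members is uncertain.

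The P14 stefin signal was spread over cells. Stfa1 had a UMI in 70.7% of P14 barcodes thinned to 1000 UMIs and in none of the thinned T or NK barcodes of that library, whose median depth was 7853.5 UMIs. BC100530 had one in 82.8% of P14 neutrophil barcodes, against 4.08% in the control. Unevenness remained, since 7 of 58 barcodes held at least 50% of the Stfa1 UMIs. The excess was present in mature-side barcodes alone, without mixed ones: Stfa1 was at 28283 CPM in 35 such barcodes at P14, against 40.1 in 39 control barcodes. Within P14, Stfa1 without mixed barcodes was lower on the immature side (15082 CPM) than on the mature side. Some stefin genes were also higher at 48 h than at 24 h. Of 514 genes compared between these libraries, 9 were at least 2-fold higher at 48 h (1.75%) and 28 lower (5.45%), together 37 (7.2%). Of the S100 and stefin list, 4 of 8 genes were at least 2-fold higher and none lower, and Gm5483 differed by a log2 ratio of 0.13. The 5 highest of all genes were BC100530 (log2 ratio 2.94), Stfa3 (1.95), Olfm4 (1.76), Stfa1 (1.74) and Ceacam10 (1.50). Of these, BC100530, Olfm4 and Stfa1 reached the 200 CPM limit at 48 h and not at 24 h. Without mixed barcodes, the immature and mature sides at 24 h were also under it for Stfa3 (98.5 and 53.8 CPM). The same held for Ceacam10 (158 and 87.3 CPM) and Stfa2 (59.1 and 129 CPM). All 5, and with them the stefin genes in the list count, entered only through the library where they were higher. The list count is therefore a description. At 48 h, however, 2 barcodes held at least 50% of the BC100530 UMIs and 4 did so for Stfa1. Olfm4, olfactomedin 4, a granule glycoprotein made in a subset of neutrophils, was at 2040.1 CPM at P14, 13.2 in the control, and 62.5, 212 and 178 at 24, 48 and 96 h.

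Cytokine genes and part of the maturation list were lower at P14. Of the tertiary granule and maturation list, 7 of 15 genes were at least 2-fold lower at P14 and none higher, with a median of -0.998, beside 30% of all genes lower and an all-gene median of -0.52. With every barcode given equal weight the list's median relative to all genes was -0.15. Ifitm1, an interferon-induced membrane protein, was at 329.98 CPM at P14 and 2562 in the control. Wfdc17, a small secreted protein with a protease-inhibitor fold, was at 41.7 CPM at P14 against 1608 in the control (-5.27, -6.05 to -4.58), and the difference was of like size in mature-side barcodes alone (-4.60). Of 4 cytokine and chemokine genes compared, 3 were lower at P14 (median -2.42). Il1b was at 368 CPM at P14, 2807 in the control, and 1125, 652 and 3883 at 24, 48 and 96 h. Cxcl2, a neutrophil-attracting chemokine, had no UMI in the P14 barcodes and 356 CPM in the control, so P14 was lower by a log2 ratio of at most -5.67 with 3 counts over the library as the floor. Wfdc17 and Cxcl2 did not reach 200 CPM at P14 and were compared only through the control, where they were higher. Thbs1, thrombospondin 1, went the other way, at 379 CPM at P14, 198 in the control and 15.1, 6.71 and 4.34 after surgery, although 1 of the 3 control barcodes with a UMI held 24 of them.

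Genes that tissue dissociation can induce were also lower at P14: 7 of 8 were at least 2-fold lower (median -1.89) and none higher, beside 30% of all genes lower and an all-gene median of -0.52. Fos was at 116 CPM at P14 and 744 in the control, Dusp1 at 179 and 1810.5 CPM, and Junb at 209 and 959 CPM. All 5 interferon-response genes compared were at least 2-fold lower at P14, including Ifi27l2a (167 against 1113 CPM). The part of cell handling in the P14 differences in Il1b and Cxcl2 was not tested.

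After hepatectomy single genes stood well above the control at 24 and 48 h, while most of the maturation list did not pass 2-fold. Of 17 list genes compared, 4 were at least 2-fold higher and 2 lower at 24 h (median -0.24, all genes -0.58), and 2 were higher and 2 lower at 48 h (median 0.01, all genes -0.71). Without mixed barcodes 3 were higher and 4 lower at 24 h, and 1 was higher and 6 lower at 48 h, beside 7.96% of all genes higher and 41.5% lower at 24 h and 5.3% and 43.9% at 48 h. The genes below are therefore no sample of the list, and several were chosen after their values were seen. Wfdc17 was at 8585 CPM at 24 h, 7027 at 48 h and 3169 at 96 h, against 1608 in the control. Its log2 ratios were 2.42 (2.23 to 2.61), 2.13 and 0.98, and 1.77, 1.51 and 0.24 without mixed barcodes. Ifitm1 was at 7363 CPM at 24 h, 4495 at 48 h and 2334 at 96 h, with a log2 ratio of 1.52 at 24 h. Prok2, prokineticin 2, a secreted peptide of myeloid cells, was at 400.5 CPM at 24 h and 547 at 48 h, where 81 and 127 barcodes held it. The control had 1 Prok2 UMI, so the log2 ratios of 5.92 (3.44 to 11.23) and 6.37 (3.89 to 11.68) have wide limits. Cd14, a co-receptor for bacterial lipopolysaccharide, was at 628 and 571 CPM at 24 and 48 h, 165 in the control and 243 at 96 h. Il1r2, the decoy receptor for interleukin 1, was highest at 24 h, at 671 CPM against 132 in the control and 246 at 48 h. Ifitm6 was at 2840.3 CPM at 24 h, 4678 at 48 h and 1135 at 96 h, against 647 in the control. S100a6 was at 14023 CPM at 24 h, 16062 at 48 h and 12462 at 96 h, against 5236 in the control and 3112 at P14.

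Il1b went the other way at these times, with log2 ratios of -1.32 (-1.48 to -1.16) at 24 h and -2.11 (-2.27 to -1.94) at 48 h. Under TMM scaling these were -0.50 and -1.10. Of 8 dissociation genes compared, 1 was at least 2-fold lower at 24 h and 4 at 48 h, beside 25.4% and 32% of all genes. Without mixed barcodes 4 and 7 of 8 were lower, beside 41.5% and 43.9%, with medians of -1.05 and -1.51 (all genes -0.80 and -0.85). None was at least 2-fold higher. The part of cell handling in the Il1b difference was not tested. Ccl6, a chemokine of myeloid cells, was at 2079 CPM in the control and at 1042, 559 and 2404 CPM after surgery. Cxcr4, the receptor that marks aged neutrophils and those kept in the marrow, was at 271 CPM in the control, 82.2 and 68.2 at 24 and 48 h, and 391 at 96 h. Of 4 cytokine and chemokine genes compared, 1 was at least 2-fold lower at 24 h and 2 at 48 h, beside 25.4% and 32% of all genes, with medians of -0.56 and -0.88, near those of all genes. Without mixed barcodes 2 of 4 were lower at each time, beside 41.5% and 43.9%. Tnf had 7 UMIs at P14, 1 in the control, and 5, 14 and 2 after surgery, and Hgf, the hepatocyte growth factor, 2, 1, 4, 9 and 3, too few to compare.

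The differences in Wfdc17, Prok2 and Lcn2 were also present among mature-side barcodes without mixed ones, which numbered 35 at P14, 39 in the control, and 130, 117 and 71 at 24, 48 and 96 h. Wfdc17 was at 2800.1 CPM there in the control and at 12589 and 10207 at 24 and 48 h (log2 ratios 2.17 and 1.87). Prok2 was at 618 and 726 CPM against 13.4. Il1b helped to set the sides and is not read here. Lcn2 was at 8444 and 9885 CPM against 2188, so its excess was not confined to immature-side barcodes.

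Without mixed barcodes, 96 h had the fewest genes past 2-fold from the control among the 4 libraries: 114 of 797 (14.3%), against 391 of 791 (49.4%) at 24 h, 380 of 773 (49.2%) at 48 h and 422 of 821 (51.4%) at P14. With them the count at 96 h was 227 of 819 (27.7%), beside 226 of 761 (29.7%) at 24 h, 284 of 759 (37.4%) at 48 h and 320 of 808 (39.6%) at P14. Without them the all-gene medians were -0.80 at 24 h, -0.85 at 48 h and -0.77 at P14, against -0.23 at 96 h, so a general shift enters these counts. Under TMM scaling, mixed barcodes kept, 70 genes were higher and 161 lower at 96 h, against 112 and 51 at 24 h and 149 and 63 at 48 h. The low count at 96 h therefore depends on the scale and on the mixed barcodes. With mixed barcodes kept, the all-gene median at 96 h was -0.02, and neither the maturation list (none of 15 genes past 2-fold) nor the dissociation list (none of 8) held a gene past 2-fold. Without them 1 of 8 dissociation genes was lower, Dusp1 at -1.06. Ptgs2, cyclooxygenase 2, had the highest ratio, 2.63 (1.33 to 4.30), at 204 CPM against 33.0, and 18 barcodes held it. It passed the 200 CPM limit only through 96 h, where it was higher. Gm5483 (1.79), Sgk1 (1.77), Metrnl (1.56) and Cd24a (1.48) followed. The lowest were Nkg7, Cox6a2, Ptprcap, Bcl11a and Siglech, genes of lymphocytes and plasmacytoid dendritic cells. They had 33 to 58 UMIs in the control, of which Bcl11a kept 3 and the other 4 genes none without mixed barcodes. None of these 5 was among the 5 lowest without mixed barcodes, where Chil3 was (-2.19). Of the 5 highest only Metrnl stayed, beside Cd177, Mapk3, Ly6c2 and Pag1, while Ptgs2 (1.97, at 193 CPM) fell under the 200 CPM needed to be compared.

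Within a library, part of the secondary granule list was higher on the immature side and much of the maturation list on the mature side. Sides were compared on summed UMIs at P14, 24 h and 48 h, without mixed barcodes. Elane barcodes that were not mixed stayed in. At 24 h those with 83203 and 28035 UMIs were among the 14 immature-side barcodes, whose median was 15635 UMIs. The deeper held 4298 of the 9528 Camp UMIs on that side. At P14 an Elane barcode with 44838 UMIs was among 15. Ratios between sides without these barcodes were not computed. The control and 96 h had 3 and 4 immature-side barcodes in all. At least 2-fold higher on the immature side were 24.4% of 685 genes at P14, 31.2% of 608 at 24 h and 8.52% of 493 at 48 h, and 36.9%, 36.3% and 17.8% were lower. Of the secondary granule list, 7 of 11, 5 of 10 and 5 of 10 genes were higher. The maturation list went the other way, with 12 of 15, 12 of 16 and 8 of 16 genes lower and none higher. Leaving out the genes that set the sides, 430 genes were compared in all 3 libraries, of which 30 were at least 2-fold higher on the immature side each time and 67 lower. Among the 30 were Lcn2, Lyz2, Cebpe, Serpinb1a, Cybb, Ltf and Chil3, and 13 ribosomal protein genes such as Rps2 and Rpl12, chosen after their values were seen.

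Cebpe, the C/EBP factor required for secondary granules, was higher on the immature side by log2 ratios of 1.67, 6.46 and 2.76 at P14, 24 h and 48 h. Its 24 h ratio rests on 3 UMIs on the mature side and has a lower limit of 4.65 and no upper one. Ltf was higher by 3.22, 4.98 and 3.99, and Cybb, the catalytic subunit of the NADPH oxidase, by 2.97, 3.21 and 3.13. Chil3 was higher by 6.11, 5.79 and 3.80. Mmp8, the neutrophil collagenase, was counted among secondary granule genes yet was lower on the immature side at P14 (-0.86) and 24 h (-2.01). Ccl6 was lower, with log2 ratios of -7.21 (-10.34 to -5.34), -7.65 (-11.02 to -5.77) and -4.53 (-5.42 to -3.78). Ifitm1 was at -7.40 (-13.82 to -4.89), -5.93 and -4.13. Dissociation genes were also lower on the immature side, 8 of 8, 9 of 9 and 6 of 8 of them, and the sides differed in depth as given above. Their part in the difference between sides was not tested.

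**Figure D4:**
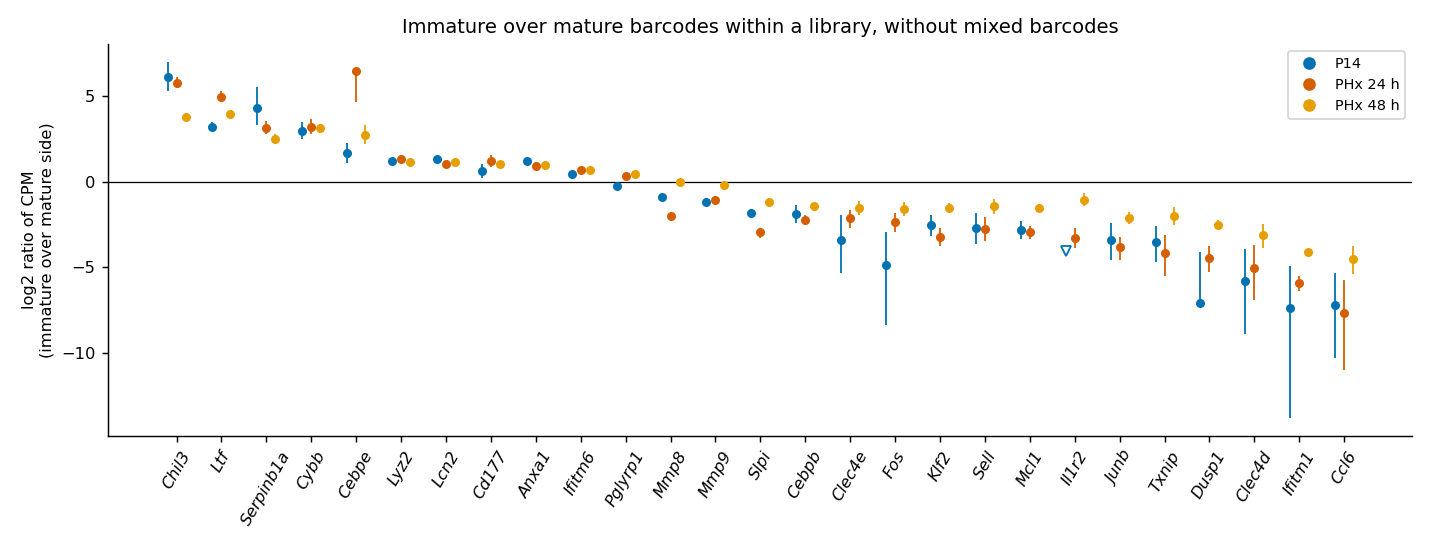
Log2 ratio of immature-side to mature-side levels for selected genes at P14, 24 h and 48 h, without mixed barcodes, with bars for the 95% counting interval (no bar where a limit is not finite) and an open triangle for a bound where 1 side had no UMI. Chil3 lies at 6.11, 5.79 and 3.80 and Ccl6 at -7.21, -7.65 and -4.53.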

How the data were processed

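Single-cell 10x libraries of mouse liver, 1 per group, were used. Per the submitters' processing notes, bcl2fastq 2.17.1.14, Cell Ranger and Seurat 3.1 were used with mm10. The deposited matrices hold raw UMI counts for 31053 features and were not cell-filtered by the authors. Counts of the neutrophil barcodes were summed per library without the 13 mitochondrial genes. Free RNA was taken from barcode ranks 20001 to 60000, scaled by 18 hepatocyte markers, and subtracted. A gene was compared if its level reached 200 CPM in 1 of the paired libraries and it had 10 UMIs over both. The genes of the selection rule were left out of counts and medians. Sides were set after thinning to 1000 UMIs. No doublet caller was run; mixed barcodes were marked by markers. Shares have exact Clopper-Pearson intervals and ratios Poisson-based intervals, which cover counting error only. In ratios, a level of 0 after subtraction was set to a floor of 3 counts per library, also where a few UMIs had been counted. Positive levels under that floor were kept as they were.

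Genes were named if in the selection rule or balance, if needed to describe a list (at most 4), or if among the 5 highest or lowest ratios with under 20% free RNA; others were chosen after their values were seen. The members, the 14 gene lists and the comparisons were chosen with earlier results of these data known. Python 3.11.15, numpy 2.4.6, scipy 1.17.1, pandas 2.3.3, matplotlib 3.10.9, R 4.3.3 and edgeR 4.0.16 (TMM factors only) were used, and the ratio calculation was tested on simulated data. Positions follow GENCODE on GRCm38. Alternatives were other limits, scalings and filters, a mean over barcodes with equal weight, and leaving out deep or mixed barcodes.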

Additional observations from a re-analysis of the deposited data

How the results depend on the processing

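No paired analysis was possible because each group had 1 library. Depth in the control, with 49 barcodes and a floor of 19.8 CPM, limits what can be said of low genes. The immature-side share stayed within its interval under all 15 alternative values computed. Numbers of neutrophil barcodes were judged by a rule of fold size and not by an interval, and none of 35 alternative values passed that rule. Without mixed barcodes the 48 h number was 140 instead of 170. Alternatives without mixed or Elane barcodes, and with S100 genes out of the total, were chosen after seeing the data. The cause of each shift below was not tested, beyond the fewer or more genes and barcodes that an alternative holds.

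The balance moved in 20 of 50 values. At P14 it was 2.12 with at least 3 of the 6 markers, 1.89 without possible doublets (at least 3 markers of another class), 1.90 without mixed barcodes, 1.80 without Elane barcodes as well and 0.98 as a mean over barcodes. In the control it was -0.75 with at least 40 S100a8 and S100a9 UMIs, -0.99 without doublets, without mixed and without mixed and Elane barcodes, and -0.96 as a mean over barcodes. At 24 h the values were -0.69 with at least 3 markers, -0.65 without doublets, -0.62 without mixed barcodes, -1.40 without Elane barcodes as well and -2.20 as a mean. At 48 h they were -0.39 without doublets, -0.33 without mixed and without mixed and Elane barcodes, and -1.23 as a mean. At 96 h the mean over barcodes was -2.66.

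Counts of genes past 2-fold were 226, 284, 227 and 320 at 24, 48 and 96 h and P14 over the control, and 37 for 48 h over 24 h. From 100 CPM they were 579, 673, 484, 671 and 88, and with no CPM filter 3857, 4424, 2066, 2968 and 2343. Without doublets they were 386 at 24 h and 138 at 96 h, and without mixed barcodes 391 and 114. With free RNA left in they were 149 at 96 h and 97 for 48 h over 24 h, and the mean over barcodes gave 22 for the latter.

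List medians, taken relative to all genes, moved in 22 of 160 values. None whose counting interval held a single sign changed sign by more than a small margin. The 24 h cytokine median, 0.02 with an interval of both signs, did change sign. For secondary granules they became 1.99 at 24 h without doublets, 1.99 at 48 h with free RNA left in, 1.94 at 48 h without doublets and 1.34 as a mean over barcodes. At 96 h the mean gave -0.00376. At P14 they were 2.65 without doublets, 2.55 without mixed barcodes and 1.82 as a mean. The maturation median at P14 was -0.15 as a mean. Cytokines were at -0.44 at 24 h with free RNA left in, -0.48 and -0.54 at 48 h without doublets and without mixed barcodes, and -2.50 and -1.11 at P14 with free RNA left in and as a mean. S100 and stefin genes were at 1.82 and 1.80 at 24 h without doublets and without mixed barcodes, and at 6.37 at P14 without doublets. Dissociation genes were at -0.64 and -0.66 at 48 h, 0.083 and 0.032 at 96 h without doublets and without mixed barcodes, and -0.74 at P14 as a mean. Of 3213 values of single genes, 1126 moved beyond their counting interval, 334 of them among the 543 under TMM scaling, and 3 changed sign where the reported ratio was past 2-fold, all at 24 h (smaller ratios, such as that of Ltf, are not in this count): Ftl1 to 0.12 with free RNA left in, and Nkg7 to 0.52 without doublets and to 0.52 without mixed barcodes.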
